A study of Homo sapiens with 4 samples.

Results

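Carriers of the SLC families move sugars, lactate and amino acids across the membranes of Huh7, an established human hepatocellular carcinoma line. The 71 genes described here are the listed genes whose symbol places them in the families SLC1A, SLC2A, SLC3A, SLC6A, SLC7A, SLC16A, SLC36A, SLC38A or SLC43A, together with BSG, out of 20226 listed genes. Antisense transcripts and pseudogenes of these families were not members. RNA sequencing compared Huh7 cells carrying a hairpin against the nuclear pore gene NUP210 (shNUP210, 2 libraries) with cells of the control hairpin (shCon, 2 libraries, genotype given as wild type). All 4 libraries were labelled untreated, and no label says how many hairpin sequences were used or whether libraries came from separate cultures. All p-values below rest on differences among these 4 libraries, and that spread may be technical.

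Transport across the plasma membrane sets how much fuel a tumour cell takes up and how much acid it releases. SLC2A proteins pass hexoses down their gradient, and SLC16A proteins of the lactate type carry lactate or pyruvate together with a proton, held at the surface by the glycoprotein basigin, the product of BSG. Amino acids enter through sodium-coupled carriers such as SLC38A2 and SLC1A5, and the heterodimeric exchangers, a light chain of the SLC7A family bound to a heavy chain of SLC3A, then trade one amino acid for another. Hepatocytes are known for the glucose carrier SLC2A2 and the glutamine carrier SLC38A3.

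Levels are TPM, transcript abundances normalised for transcript length and library total, so levels of different genes can be set side by side. TPM keep no read depth. The smallest values correspond to about 0.53 to 0.67 TPM for 1 fragment on a 1 kb transcript, which puts 5 TPM at about 7.5 to 9.4 fragments, and these are approximations. The libraries held 13675 to 14564 genes at 1 TPM or more, more in shNUP210 than in shCon. NUP210 itself fell, from 32.82 and 27.28 TPM in shCon to 10.10 and 9.85 TPM in shNUP210 (log2 fold change -1.49, limma adjusted p = 0.0432). All 12 hepatocyte markers checked were at 5 TPM or more in every library. Their summed level was 32028 to 32693 TPM in shNUP210 and 46009 to 47635 TPM in shCon, and its part in the results below was not tested. The markers did not move together: APOA1, APOA2, TF and SERPINA1 were lower in both shNUP210 libraries, AFP, TTR, HNF4A and FOXA2 were higher in both, and the groups overlapped for the other 4. APOA2, an apolipoprotein, held most of the sum, at 16903 and 17350 TPM in shNUP210 and at 26123 and 28243 TPM in shCon. Of 16 markers of fibroblasts, leukocytes, endothelial and erythroid cells, 7 were listed, with summed levels of 19.5 to 36.8 TPM in shNUP210 and 11.9 to 16.5 TPM in shCon for the 5 fibroblast markers. The single leukocyte marker listed, CD68, was at 13.85 and 2.48 TPM in shNUP210 and at 30.66 and 17.85 TPM in shCon. HBA1, of red cells, was at 0 in 3 libraries, and no endothelial marker was listed.

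The comparison asked which carriers changed when NUP210 was knocked down. SLC38A2 rose and SLC16A3 fell, and the other carriers tested did not pass the threshold. The test was limma on log2(TPM + 1) over the 10140 genes with at least 5 TPM in 2 libraries, with Benjamini-Hochberg adjusted p under 0.05 as the call. Of the 71 members, 40 were tested. Called higher were 1 of 40 members, against 1.79% of all genes tested, and called lower 1 of 40, against 1.07%. Over all genes tested 181 were called higher and 109 lower. Groups did not overlap for 10 members in the higher direction and 14 in the lower direction, that is 25% and 35% of the 40, against 42.9% and 14.3% of all genes tested. The median log2 fold change of the 40 members was -0.18 (mean -0.12), beside a median of 0.23 (mean 0.24) for all genes tested. Their levels were close to the whole, with a median of 16.5 TPM against 20.4 TPM. A single member, SLC16A10, passed the filter on low values through the shNUP210 libraries alone.

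The scale of the libraries touches every direction given here. After trimmed-mean scaling the median of all genes moved from 0.23 to 0.002 on the log2 scale, and all-gene calls became 76 higher (0.75% of those tested) and 252 lower (2.49%). Among the members 0 were then called higher, with 1 higher at an unadjusted p under 0.05, and 6 of 40 lower: SLC16A3, SLC1A5, SLC2A8, SLC38A3, SLC6A9 and SLC6A11. The member median was then -0.41. In bulk RNA, a lower level in each cell and a smaller share of cells holding the transcript cannot be told apart.

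**Figure D1:**
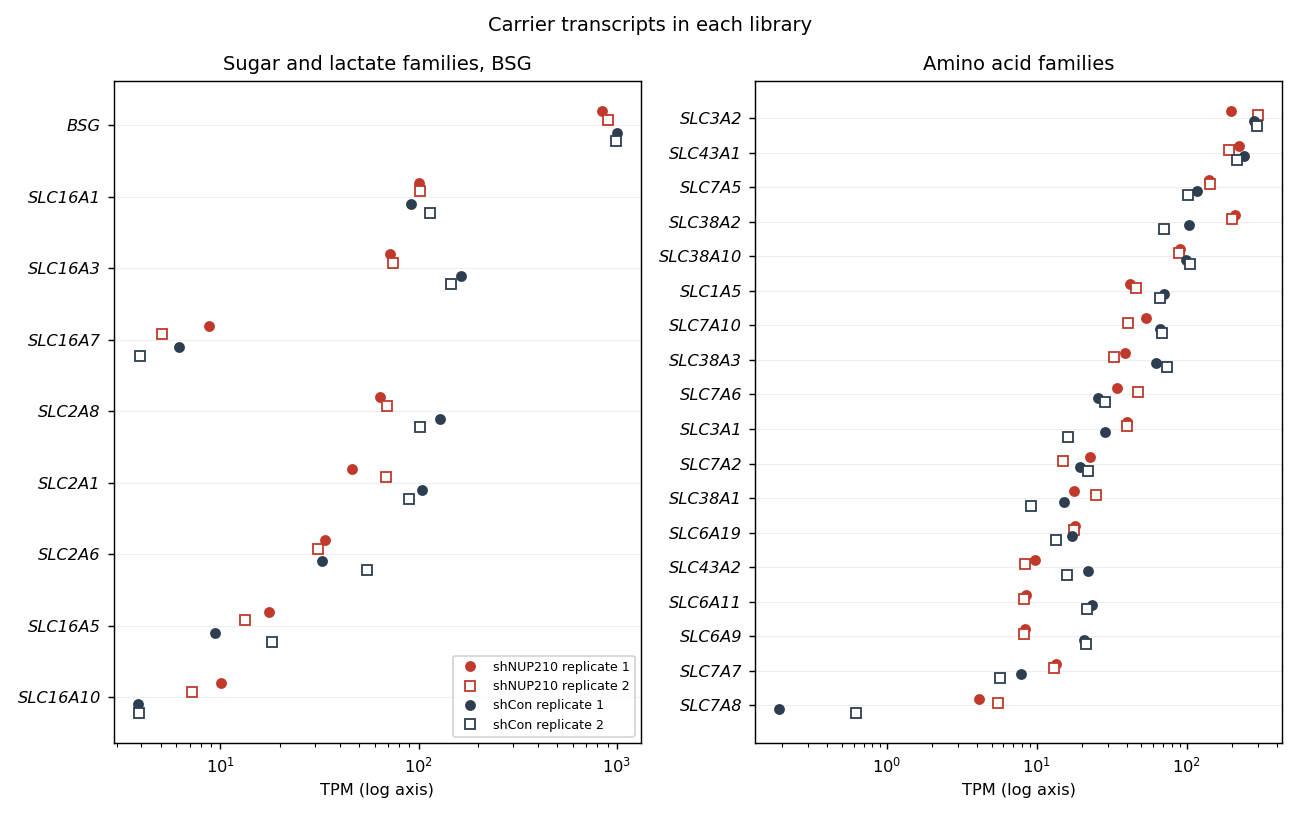
TPM on a log axis for 9 genes of the sugar and lactate families with BSG (left) and 18 genes of the amino acid families (right), 1 point per library (red shNUP210, dark shCon, filled replicate 1, open replicate 2). The red points of SLC16A3 lie at 72.05 and 74.40 TPM, left of both dark points, and those of SLC38A2 at 210.46 and 200.45 TPM, right of both.

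Lactate carriers differed from each other. SLC16A3 (ENSG00000141526, GRCh38 chromosome 17, 82228397 to 82261129, plus strand), the low-affinity carrier known for lactate export from glycolytic cells, was at 72.05 and 74.40 TPM in shNUP210 and at 163.27 and 146.35 TPM in shCon. Both knockdown libraries lay below both control libraries. SLC16A3 thus fell to 0.473 of the control mean (73.2 ± 1.7 against 154.8 ± 12 TPM, SD, n = 2), a log2 fold change of -1.07 (SE 0.13, limma adjusted p = 0.0263). The call was lost when any 1 library was left out (limma adjusted p 0.115 to 0.138, log2 fold change -1.15 to -0.99) and with the replicate number as a block (0.0600).

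SLC16A1 (chromosome 1, 112911847 to 112957013, minus strand), which carries lactate and pyruvate in either direction, was at 100.19 and 101.25 TPM in shNUP210 and at 91.55 and 114.19 TPM in shCon, and the groups overlapped. Its log2 fold change was -0.02, with a 95% interval of -0.40 to 0.36. BSG (chromosome 19, 571277 to 583493, plus strand), the chaperone of both, was the most abundant member, at 843.03 and 907.21 TPM against 1006.66 and 996.84 TPM. The BSG groups did not overlap, but the difference of -0.20 (interval -0.38 to -0.01) did not pass (limma adjusted p = 0.193). SLC16A7, a high-affinity pyruvate carrier, was at 8.77 and 5.08 TPM against 6.20 and 3.95 TPM.

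The balance of both lactate carriers can be read within a library, where any scaling factor cancels. The ratio of SLC16A3 to SLC16A1 was 0.719 and 0.735 in shNUP210 and 1.78 and 1.28 in shCon. SLC16A3 was therefore the more abundant of the pair in both control libraries and the less abundant in both knockdown libraries. BSG was 4.90 and 5.17 times the sum of both in shNUP210 and 3.95 and 3.83 times in shCon. With 2 libraries a group, an exact two-sided permutation test cannot give a p below 0.33, so ratios carry no test.

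Exons of SLC16A3 share 482 bases with CSNK1D, a casein kinase gene on the same stretch of chromosome 17, and whether strand was used in counting is not stated. CSNK1D was at 127.10 and 138.64 TPM in shNUP210 and at 111.57 and 115.41 TPM in shCon. Its log2 fold change of 0.22 did not pass (limma adjusted p = 0.306) and was -0.02 after trimmed-mean scaling. The overlap of BSG with AC009005.2 covers 140 bases, and AC009005.2 was at 2.0 to 8.69 TPM. In all, 12 of the 40 members tested share 100 or more exonic bases with another listed gene.

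Both called members have their promoter windows in the RefSeq table for GRCh38.p14 (250 bases before to 50 bases after a start), shown here because SLC16A3 and SLC38A2 are the genes the calls turn on. SLC16A3 has 5 windows at alternative starts. The first is chr17:82228185-82228484 and the second chr17:82228792-82229091, both on the plus strand, and the single SLC38A2 window is chr12:46372724-46373023 on the minus strand. Capitals mark ACGTG, the core that hypoxia-inducible factors recognise.
SLC16A3, first window: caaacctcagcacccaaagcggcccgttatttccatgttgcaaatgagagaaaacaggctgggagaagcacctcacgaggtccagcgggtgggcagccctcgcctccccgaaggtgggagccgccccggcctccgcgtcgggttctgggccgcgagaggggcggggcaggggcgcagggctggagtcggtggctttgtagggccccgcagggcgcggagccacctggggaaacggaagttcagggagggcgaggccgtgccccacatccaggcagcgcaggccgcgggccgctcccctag
SLC16A3, second window: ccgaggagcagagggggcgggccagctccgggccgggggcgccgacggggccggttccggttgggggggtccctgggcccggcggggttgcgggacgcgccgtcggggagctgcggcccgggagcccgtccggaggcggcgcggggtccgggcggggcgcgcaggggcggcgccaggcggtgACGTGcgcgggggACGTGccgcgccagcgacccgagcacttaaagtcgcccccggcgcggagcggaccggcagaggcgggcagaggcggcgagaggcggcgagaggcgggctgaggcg
SLC38A2: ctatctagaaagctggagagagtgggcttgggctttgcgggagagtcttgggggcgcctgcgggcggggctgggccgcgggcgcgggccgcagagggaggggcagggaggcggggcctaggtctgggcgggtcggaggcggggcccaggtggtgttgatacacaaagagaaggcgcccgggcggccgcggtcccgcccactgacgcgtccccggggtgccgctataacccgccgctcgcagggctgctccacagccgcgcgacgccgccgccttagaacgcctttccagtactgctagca
The second window of SLC16A3 holds 2 copies of ACGTG, and the first window and that of SLC38A2 hold none.

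Of the 71 members, 56 matched the promoter table by symbol, with 87 windows. Both strands were searched, so CACGTG holds ACGTG on each, and ACGTG and GCGTG can share bases. ACGTG occurred in 31% of member windows and in 21.4% of all 35116 windows. GCGTG, its other core form, occurred in 47.1% and 36.5%, and TGATGNAA, an amino acid response element, in 6.9% and 3.62%. TGACTCA, the AP-1 site, occurred in 9.2% and 4.95%, and CATTCC, a TEAD site, in 11.5% and 14%. These are matches of letters in 1 window per start. TGATGNAA and TGACTCA were found in only 6 and 8 of the 87 member windows. The full set of windows was not matched to the members for gene type or for G and C content, and the shares carry no test. The windows printed are rich in G and C, at 70%, 82.7% and 72% in the order shown.

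Other SLC16A members transport amino acids, hormones or little-known substrates. SLC16A10, a carrier of aromatic amino acids, was at 10.13 and 7.23 TPM in shNUP210 and at 3.82 and 3.88 TPM in shCon, with no overlap (log2 fold change 0.98, SE 0.38, limma adjusted p = 0.196). Because SLC16A10 passed the filter through the shNUP210 libraries alone, its direction and lack of overlap add no support. SLC16A5, the most abundant of these, was at 17.54 and 13.25 TPM against 9.40 and 18.31 TPM, and its groups overlapped. SLC16A13, of little-known substrate, was at 9.09 and 7.92 TPM against 10.15 and 16.27 TPM.

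Hexose carriers had 0 of 4 tested members called, with 1 of 4 above 0 and a median log2 fold change of -0.57. Of all genes tested 68.9% were above 0, with a median of 0.23. SLC2A8 (chromosome 9, 127397138 to 127408424, plus strand), a hexose carrier held on internal membranes, was the most abundant of the 12 SLC2A members, at 63.79 and 69.32 TPM in shNUP210 and at 128.79 and 101.78 TPM in shCon. The SLC2A8 groups did not overlap, and the log2 fold change of -0.77 (SE 0.17) did not pass in TPM as deposited (limma adjusted p = 0.0724). After trimmed-mean scaling it passed (limma adjusted p = 0.0373). SLC2A1 (chromosome 1, 42925375 to 42959176, minus strand), the basal glucose carrier of most tumour cells, was at 46.02 and 68.62 TPM against 104.04 and 89.04 TPM. Its groups did not overlap either (log2 fold change -0.77, interval -1.32 to -0.21, limma adjusted p = 0.124).

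Other hexose carriers were at lower levels. SLC2A6, a lysosomal carrier, was at 33.63 and 30.99 TPM against 32.68 and 54.96 TPM, so its groups overlapped. SLC2A11, a hexose carrier, was at 7.05 and 7.58 TPM against 4.37 and 6.92 TPM, without overlap (limma adjusted p = 0.61). SLC2A1 and SLC2A8 together made up 66.2% and 73.0% of the summed SLC2A level in shNUP210 and 81.5% and 71.0% in shCon. That sum was 165.8 and 188.9 TPM in shNUP210 and 285.7 and 268.9 TPM in shCon. SLC2A2, the hepatocyte glucose carrier, lay under the filter, at 1.28 and 0.91 TPM against 3.26 and 4.02 TPM. SLC2A3, the high-affinity neuronal form, was at 0 in 3 libraries and at 0.13 TPM in the fourth, while its near-identical paralog SLC2A14 was at 1.70 to 3.70 TPM. Reads of SLC2A3 and SLC2A14 could be shared between them, so both levels are uncertain.

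**Figure D2:**
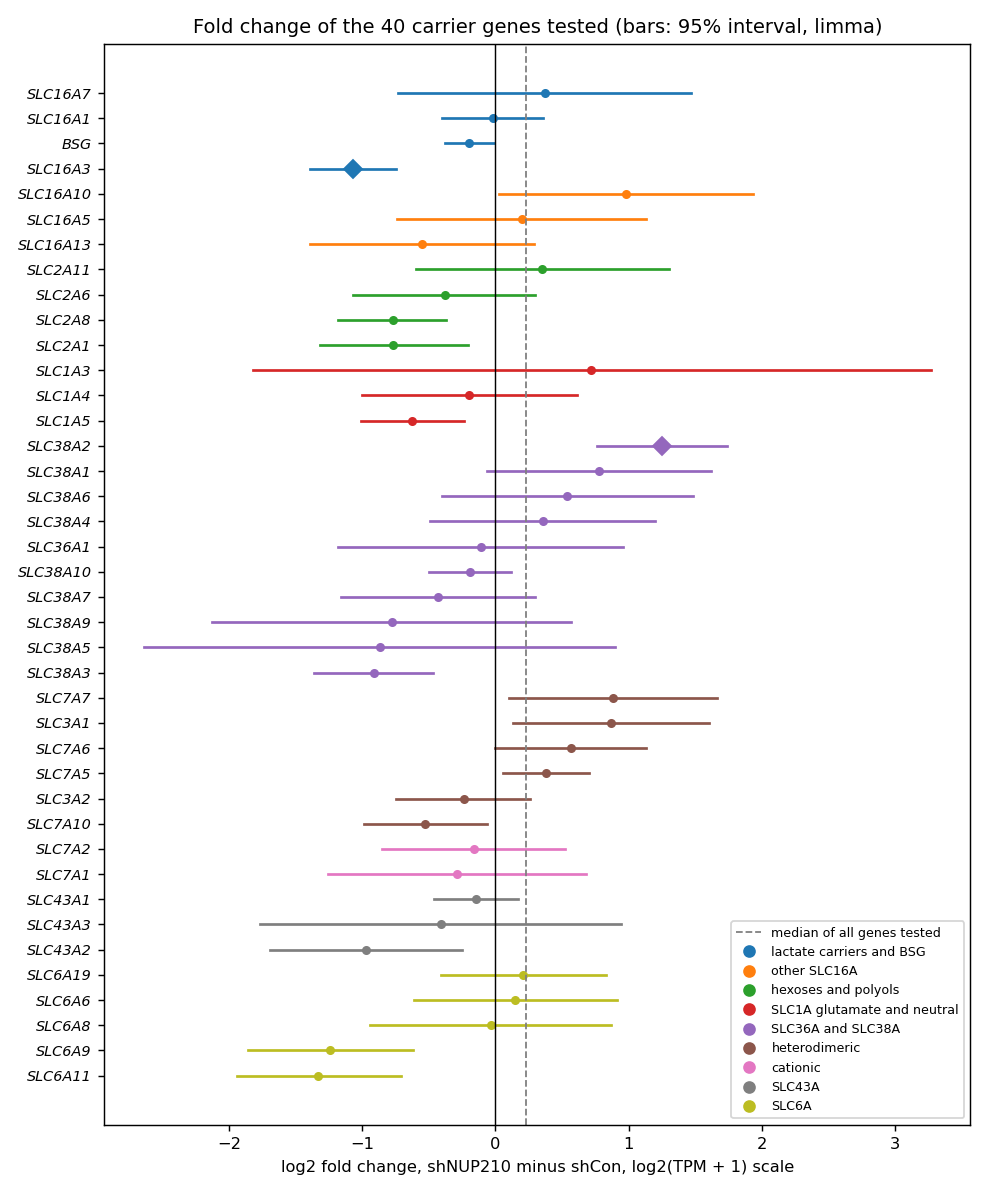
Log2 fold change (shNUP210 minus shCon, log2(TPM + 1) scale) of the 40 members tested, coloured by substrate class, with 95% intervals from limma; diamonds mark the 2 called genes and the dashed line the all-gene median of 0.23. SLC38A2 at 1.25 and SLC16A3 at -1.07 are the diamonds, and SLC6A11 at -1.33 is the lowest point.

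Sodium-coupled carriers of the SLC38A family, with the proton-coupled SLC36A family, had 1 of 10 tested members called higher and 0 lower. Over all genes tested 1.79% were called higher and 1.07% lower. The class median log2 fold change was -0.15 beside 0.23 for all genes. Groups were apart for 3 members in the higher direction and 3 in the lower, against 42.9% and 14.3% of all genes tested. SLC38A2 (ENSG00000134294, chromosome 12, 46358189 to 46372867, minus strand) takes up small neutral amino acids with sodium and is known as a gene induced when amino acids are scarce. It was at 210.46 and 200.45 TPM in shNUP210 and at 103.60 and 70.99 TPM in shCon. Both knockdown libraries lay above both control libraries, although the control libraries were far apart. SLC38A2 rose 2.35-fold (205.5 ± 7.1 against 87.3 ± 23.1 TPM, SD, n = 2), a log2 fold change of 1.25 (SE 0.20, limma adjusted p = 0.0426).

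That call rests on the scaling as deposited. The limma adjusted p of SLC38A2 was 0.0509 to 0.0558 under the 4 other scalings, 0.0592 with a replicate block and 0.0862 to 0.166 without any 1 library. The log2 fold change was 0.98 without shCon replicate 2 and 1.52 without shCon replicate 1. None of its exons shares 100 bases with another listed gene.

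SLC38A3 (chromosome 3, 50205246 to 50221486, plus strand), the sodium- and proton-coupled glutamine carrier of hepatocytes, was at 38.67 and 33.00 TPM in shNUP210 and at 63.00 and 73.73 TPM in shCon. The SLC38A3 groups did not overlap, in the direction opposite to SLC38A2 (log2 fold change -0.91, SE 0.18, limma adjusted p = 0.0630, and 0.0396 after trimmed-mean scaling). The ratio of SLC38A2 to SLC38A3 was 5.44 and 6.07 in shNUP210 and 1.64 and 0.963 in shCon. SLC38A2 was 52.4% and 51.3% of the summed SLC38A level in shNUP210 and 30.4% and 23.0% in shCon.

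Relatives of SLC38A2 spanned both directions without a call. SLC38A1, a close relative with the same substrates, was at 17.67 and 24.79 TPM against 15.19 and 9.10 TPM, with no overlap (log2 fold change 0.78, interval -0.06 to 1.62). SLC38A4, the relative found mainly in liver, was at 7.70 and 8.08 TPM against 5.48 and 6.42 TPM. SLC38A6 was at 9.35 and 14.24 TPM against 9.65 and 5.98 TPM, and its groups overlapped. SLC38A10 was at 89.77 and 88.67 TPM against 98.75 and 105.29 TPM. The lysosomal members SLC38A7, a glutamine exporter, and SLC38A9, an arginine sensor, had log2 fold changes of -0.43 and -0.78, with intervals that include 0 (limma adjusted p 0.409 and 0.418). SLC38A5 turned on 1 library, shCon replicate 1 at 18.91 TPM, with 3.13 to 6.61 TPM in the others. SLC36A1, a lysosomal proton-coupled carrier, was at 3.63 to 5.48 TPM.

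**Figure D3:**
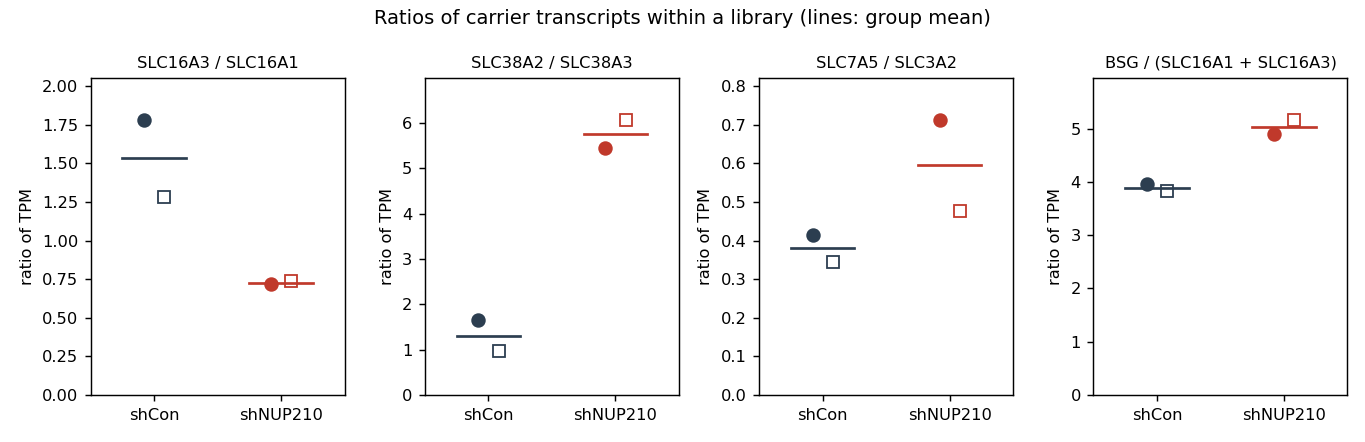
Ratios of TPM within each library for 4 pairs of carriers (filled replicate 1, open replicate 2, lines the group means), on axes that start at 0. The ratio of SLC38A2 to SLC38A3 is 5.44 and 6.07 in shNUP210 against 1.64 and 0.963 in shCon. SLC38A2 and SLC38A3 were each already apart, in opposite directions, so this ratio had to be apart too. In each of the 4 panels the groups do not overlap. The ratios were picked after the values were seen, so this adds no support.

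SLC1A carriers had 0 of 3 tested members called. SLC1A5 (chromosome 19, 46774883 to 46788594, minus strand), a glutamine and neutral amino acid exchanger of proliferating cells, was at 42.03 and 46.07 TPM in shNUP210 and at 70.37 and 66.54 TPM in shCon. Its groups did not overlap (log2 fold change -0.63, SE 0.15, limma adjusted p = 0.0913, and 0.0483 after trimmed-mean scaling). The ratio of SLC38A2 to SLC1A5 was 5.01 and 4.35 in shNUP210 and 1.47 and 1.07 in shCon. Both genes were already apart, in opposite directions, so this ratio had to be apart and adds no support. SLC1A4, the serine and alanine carrying relative of SLC1A5, was at 7.66 and 11.68 TPM against 10.71 and 11.34 TPM. SLC1A3, a glutamate carrier of glial cells, differed more within groups than between them, at 19.93 and 2.14 TPM against 7.89 and 1.71 TPM.

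Heterodimeric exchangers were the class with the highest median, 0.47 beside 0.23 for all genes tested, with 0 of 6 tested members called. Groups were apart for 4 in the higher direction and 1 in the lower, where 42.9% and 14.3% of all genes tested were apart. After trimmed-mean scaling those 4 had log2 fold changes of 0.14 to 0.66, and SLC3A2 and SLC7A10 of -0.49 and -0.77. SLC3A2, the heavy chain that brings most light chains to the surface, was at 197.44 and 301.95 TPM in shNUP210 and at 281.81 and 296.16 TPM in shCon, and the knockdown libraries differed more from each other than the groups did. SLC7A5 (chromosome 16, 87830023 to 87869488, minus strand), its partner for large neutral amino acids such as leucine, was at 140.84 and 144.28 TPM against 117.07 and 101.79 TPM, with no overlap (log2 fold change 0.38, interval 0.06 to 0.70, limma adjusted p = 0.158). The ratio of SLC7A5 to SLC3A2 was 0.713 and 0.478 in shNUP210 and 0.415 and 0.344 in shCon. The pseudogene copies SLC7A5P1 and SLC7A5P2 were at 1.99 and 6.36 TPM and at 7.50 and 3.87 TPM in shNUP210. In shCon SLC7A5P1 was at 1.67 and 1.71 TPM and SLC7A5P2 was listed at 0, and their reads may be shared with SLC7A5.

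SLC7A7 (chromosome 14, 22773222 to 22829820, minus strand), which exports cationic amino acids in exchange for neutral ones, was at 13.45 and 13.02 TPM against 7.90 and 5.71 TPM. The SLC7A7 groups did not overlap (log2 fold change 0.88, SE 0.31, limma adjusted p = 0.168). SLC7A6, of the same transport type, was at 34.47 and 47.78 TPM against 25.48 and 28.75 TPM (limma adjusted p = 0.204). Exons of SLC7A6 share 3371 bases with SLC7A6OS, itself at 115.14 and 121.28 TPM against 51.02 and 44.26 TPM, and how far reads were shared was not tested. SLC7A10, an exchanger of small neutral amino acids, was at 53.34 and 40.58 TPM against 66.06 and 68.96 TPM (log2 fold change -0.53, limma adjusted p = 0.167). It shares 204 exonic bases with LRP3, which was at 201.64 and 178.41 TPM against 270.01 and 263.90 TPM.

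SLC3A1 (chromosome 2, 44275458 to 44321494, plus strand), the heavy chain of the renal cystine carrier, was at 39.96 and 40.23 TPM in shNUP210 and at 28.58 and 16.15 TPM in shCon, with no overlap (log2 fold change 0.87, SE 0.30, limma adjusted p = 0.160). Its usual light chain SLC7A9 was at 0 in 3 libraries and at 0.60 TPM in shCon replicate 1. SLC3A1 shares 1923 exonic bases with PREPL, which was at 2.48 to 12.70 TPM. SLC7A11, the cystine and glutamate exchanger, was at 0.13 to 1.76 TPM and was not tested.

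SLC7A8 lay below the filter. A light chain for neutral amino acids, it was at 4.09 and 5.49 TPM in shNUP210 and at 0.19 and 0.62 TPM in shCon. Both knockdown libraries lay above both control libraries. With the filter at 1 TPM in 2 libraries SLC7A8 had a log2 fold change of 2.05 (SE 0.42) and did not pass (limma adjusted p = 0.109).

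Cationic carriers had 0 of 2 tested members called. SLC7A2, a carrier of arginine found in liver, was at 22.73 and 15.00 TPM in shNUP210 and at 19.59 and 22.10 TPM in shCon, and SLC7A1, the widely expressed form, at 5.63 and 4.08 TPM against 5.81 and 6.40 TPM. Among the SLC43A carriers 0 of 3 were called. SLC43A1, a carrier of large neutral amino acids, was at 224.27 and 192.80 TPM against 243.38 and 217.66 TPM, with overlap. SLC43A2 (chromosome 17, 1569267 to 1628886, minus strand), of the same substrates, was at 9.77 and 8.31 TPM against 21.87 and 15.83 TPM, without overlap (log2 fold change -0.97, SE 0.29, limma adjusted p = 0.131). SLC43A3, a nucleobase carrier, was at 7.45 and 22.00 TPM against 23.62 and 13.00 TPM.

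SLC6A carriers couple uptake to sodium and chloride, and 0 of 5 tested members were called in TPM as deposited. SLC6A11 (chromosome 3, 10816200 to 10940733, plus strand), a carrier of the transmitter GABA, was at 8.51 and 8.23 TPM in shNUP210 and at 23.44 and 21.60 TPM in shCon. SLC6A11 had the lowest fold change of the 40 members (log2 -1.33, SE 0.25, limma adjusted p = 0.0569, and 0.0379 after trimmed-mean scaling). SLC6A9 (chromosome 1, 43991500 to 44031467, minus strand), a glycine carrier, was at 8.37 and 8.22 TPM against 20.66 and 21.19 TPM (log2 fold change -1.24, SE 0.25, limma adjusted p = 0.0675, and 0.0460 after trimmed-mean scaling). In both genes replicates lay close together and the groups far apart. SLC6A9 shares 404 exonic bases with CCDC24, which was at 2.73 to 4.20 TPM.

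The remaining tested SLC6A members lay near 0. SLC6A19, the neutral amino acid carrier of gut and kidney, had the highest mean of the family over the 4 libraries, at 17.88 and 17.63 TPM against 17.13 and 13.47 TPM. SLC6A6, which carries taurine, had a log2 fold change of 0.15 (interval -0.61 to 0.91) and SLC6A8, which carries creatine, one of -0.03 (interval -0.94 to 0.87).

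**Figure D4:**
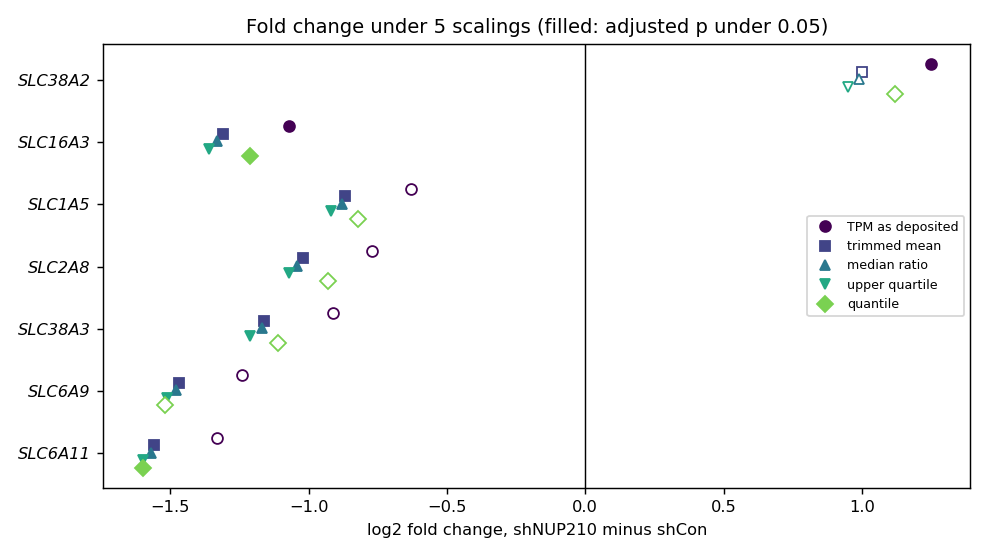
Log2 fold change (shNUP210 minus shCon) of the 7 members called under at least 1 of 5 scalings, 1 marker shape per scaling, filled where the limma adjusted p was under 0.05. SLC16A3 is filled under all 5 scalings, SLC38A2 under TPM as deposited alone, and SLC6A11 under 4.

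Of the 31 members not tested, 8 stayed under 1 TPM in every library, 19 reached between 1 and 5 TPM, and 4 reached 5 TPM in 1 library. The last group was SLC7A8, SLC2A10, SLC16A8 and SLC36A4. SLC16A8, a lactate carrier of the retinal pigment epithelium, was at 2.67 and 5.49 TPM in shNUP210 and at 0 and 2.25 TPM in shCon. SLC36A4 was at 4.01 and 1.32 TPM against 4.07 and 6.31 TPM, and SLC2A10 at 2.23 and 0.14 TPM against 1.89 and 5.27 TPM.

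Other members under the filter reached 1 TPM with groups that did not overlap. Lower in shNUP210 were SLC2A2 (above), SLC16A11 (0.36 and 0 against 3.49 and 1.22 TPM), SLC6A4, the serotonin carrier (0.85 and 0.62 against 1.93 and 3.48 TPM), SLC6A14 (0.25 and 0.55 against 0.86 and 1.20 TPM) and SLC7A4 (0.26 and 0.58 against 1.34 and 0.91 TPM). SLC6A12, a betaine carrier, was listed at 0 in both shNUP210 libraries and at 2.98 and 0.54 TPM in shCon. Higher in shNUP210 were SLC2A4, the insulin-responsive glucose carrier (2.52 and 3.52 against 2.43 and 1.82 TPM), SLC2A12 (1.28 and 0.84 against 0.33 and 0.44 TPM) and SLC2A13, a myo-inositol carrier (4.90 and 3.44 against 3.08 and 2.38 TPM). At the lowest of these levels a few fragments can set a value, and fragment numbers also depend on transcript length.

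Genes that act beside the carriers were counted from 4 lists. Of 9 tested genes of glucose and lactate handling inside the cell, 0 were called, with a median log2 fold change of 0.03 (0.23 for all genes). Groups were apart for 1 in the higher direction, PKM, and for 3 in the lower, MPC1, PFKL and SLC37A4. Over all genes tested 42.9% and 14.3% were apart. LDHA, which makes lactate from pyruvate, was at 191.00 and 160.78 TPM in shNUP210 and at 154.96 and 188.77 TPM in shCon. NPTN, a relative of BSG, was at 98.46 and 97.36 TPM against 110.61 and 79.20 TPM.

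Of 17 tested genes of the amino acid starvation response, 0 were called higher and 2 lower, where 1.79% and 1.07% of all genes tested were. Their median was -0.17 beside 0.23 for all genes. The 2 called were SHMT2, a mitochondrial serine enzyme (224.90 and 254.75 against 396.00 and 397.77 TPM, limma adjusted p = 0.0360), and CEBPB, a transcription factor (96.06 and 100.12 against 184.47 and 162.67 TPM, limma adjusted p = 0.0421). Groups were apart for 4 of the 17 in the higher direction and for 8 in the lower, against 42.9% and 14.3% of all genes tested. Apart in the higher direction, without a call, were PPP1R15A, AARS, EIF2AK4 and EIF2AK3. ATF4, the factor that drives this response, was at 227.44 and 256.08 TPM against 266.02 and 282.61 TPM and did not pass (limma adjusted p = 0.348). ASNS, its asparagine synthetase target, was at 20.84 and 17.12 TPM against 30.13 and 36.53 TPM and did not pass either (limma adjusted p = 0.12). SLC38A2, also known as a target of this response, was higher in both knockdown libraries (above). It is a single carrier, named because it was called. Of the 40 carriers tested, 15 had log2 fold changes above 0 and 25 below, and their relation to this response was not tested.

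Of 10 tested glutamine and glutamate enzymes 1 was called higher and 0 lower, where 1.79% and 1.07% of all genes tested were. Their median log2 fold change was -0.05 beside 0.23 for all genes. Groups were apart for 3 in the higher direction and 3 in the lower, against 42.9% and 14.3% of all genes tested. The enzyme called was GLUD1, which oxidises glutamate in mitochondria. It was at 170.68 and 156.01 TPM against 90.21 and 98.97 TPM (limma adjusted p = 0.0455, and 0.0972 after trimmed-mean scaling). GLUD1 shares 100 or more exonic bases with FAM35A, and how far reads were shared was not tested. GLUL, which makes glutamine, was at 587.03 and 495.12 TPM against 647.25 and 616.08 TPM. Of 15 tested genes of amino acid sensing at the lysosome 0 were called, with a median of 0.11 (0.23 for all genes). After trimmed-mean scaling the 4 lists held 0 higher calls and 5 lower calls, 4 of them in the starvation list and 1 among the glutamine and glutamate enzymes, beside 0.75% of all genes tested called higher and 2.49% lower.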

How the data were processed

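RNA from 4 Huh7 libraries was measured by sequencing. The authors deposited 1 table of TPM per library, read as TPM from column totals of 999992.72 to 999997.80. The authors used STAR, RSEM, Trimmomatic and DESeq, with the build hg38, per the submitters' processing notes, which give neither roles nor versions here. Strand setting and annotation release are not given in the sources used here. Positions and exon overlaps came from GENCODE release 29 on GRCh38, for 70 of 71 members. Log2 folds were estimated in R 4.3.3 by limma 3.58.1, from log2(TPM + 1) and allowing a trend of variance with level, across all genes with at least 5 TPM in 2 libraries, two-sided. Intervals are 95% with 5.7 moderated degrees of freedom. The fit was tested on simulated data. Alternatives were other filters and pseudocounts, no variance trend, the replicate number as a block, each library left out, members with exon overlaps left out, and 4 library scalings. The trimmed-mean scaling averages each library's log ratios to the gene means after dropping 30% of genes at each end. The members, lists, filter and scaling were chosen with earlier results of these data known. Values in every library were given for BSG, called members, tested members with non-overlapping groups and a log2 fold change of at least 0.8 in size, and the most abundant member of each class. Low members reaching 5 TPM in 1 library, or 1 TPM without overlap, were also named. Other genes, among them SLC2A1, SLC16A1 and SLC7A5, and all ratios were picked after their values were seen.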

Additional observations from a re-analysis of the deposited data

How the results depend on the processing

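With 2 libraries a group the fit has 2 residual degrees of freedom, and leaving out 1 library assumes that the lone library varies like the other group. SLC16A3 was called in 7 of 15 alternatives and SLC38A2 in 3 of 15. Calls over all genes numbered 15 with no filter, 57 with 1 TPM in 2 libraries, 63 with the replicate block and 4 to 27 when leaving out 1 library, against 290. Without the mean-variance trend limma called 0, with 2290 at an unadjusted p under 0.05. Carriers called higher (1) became 0 in each of these settings and under the 4 other scalings, and carriers called lower (1) became 0 in each of these filter, trend, block and left-out settings. At an unadjusted p under 0.05 those settings held 1 to 6 higher and 7 to 12 lower carriers. Carriers called lower became 6 under trimmed-mean, median-ratio and upper-quartile scaling and 2 under quantile normalization. Lower calls over all 10140 genes were 252, 258, 279 and 118 under those scalings in turn, against 109. All-gene higher calls were 76, 74, 66 and 87, against 181. Carriers called lower became 0 when members with an exon overlap were left out, since SLC16A3 has one. The carrier median moved to -0.41, -0.43, -0.46 and -0.34 under those 4 scalings in turn and to between -0.18 and -0.11 without 1 library. Filtering at 1 TPM in all 4 libraries and pseudocounts of 0.1 and 5 TPM changed neither carrier count. Uncalled folds reversed sign as follows. Under trimmed-mean, median-ratio, upper-quartile and quantile scaling in turn, SLC16A5 was at -0.03, -0.05, -0.08 and -0.09, SLC6A19 at -0.02, -0.04, -0.07 and -0.07, and SLC6A6 at -0.08, -0.09, -0.12 and -0.15. Without shNUP210 replicate 1 (and at the other end of the left-out fits), SLC1A3 was at -0.64 (2.09), SLC1A4 at 0.08 (-0.47), SLC3A2 at 0.06 (-0.55), SLC43A3 at 0.31 (-1.14), SLC6A6 at -0.04 (0.35) and SLC6A8 at 0.05 (-0.11). Without shNUP210 replicate 2, SLC36A1 was at 0.12 (-0.34) and SLC7A2 at 0.12 (-0.45). Without shCon replicate 1, SLC16A5 was at -0.25 (0.64), SLC36A1 at 0.04 and SLC38A5 at 0.09 (-1.83). Without shCon replicate 2, SLC16A1 was at 0.14 (-0.18) and SLC1A3 at -0.13. Same-numbered libraries hardly deviated together (correlation 0.0231 over genes), so the numbers are not taken as pairs. The cause of these moves was not tested.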

Other observations

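Transcripts that carry a carrier's name but are not carriers were also listed. SLC7A6OS, which lies beside SLC7A6 and shares exons with it, rose from 51.02 and 44.26 TPM in shCon to 115.14 and 121.28 TPM in shNUP210 (log2 fold change 1.30, SE 0.15, limma adjusted p = 0.0233, and 0.0281 after trimmed-mean scaling). SLC7A11-AS1, antisense to the cystine exchanger gene SLC7A11, was at 2.16 and 2.60 TPM in shNUP210 and at 15.11 and 6.0 TPM in shCon and did not pass (limma adjusted p = 0.143). SLC7A11-AS1 was above SLC7A11 itself in all 4 libraries. Both share 865 exonic bases, and how far reads were shared was not tested. SLC2A4RG, a transcription factor gene named for its action on SLC2A4, was at 221.75 and 204.75 TPM against 256.62 and 260.59 TPM (limma adjusted p = 0.176). SLC2A1-AS1 and SLC16A1-AS1 were under 1 TPM in every library.

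Summed levels of some of the classes give each library's makeup, with no test. SLC36A and SLC38A carriers summed to 411.7 and 395.8 TPM in shNUP210 and to 350.3 and 318.9 TPM in shCon. Within that sum SLC38A2 was at 210.46 and 200.45 TPM against 103.60 and 70.99 TPM. The rest of the sum was lower in both shNUP210 libraries than in both shCon libraries. The SLC6A sum was 55.3 and 52.0 TPM against 82.0 and 78.0 TPM, and the SLC1A sum 70.9 and 62.8 TPM against 89.6 and 81.6 TPM. Heterodimeric carriers summed to 484.6 and 593.5 TPM against 528.7 and 519.9 TPM, with overlap.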
